A study of Mus musculus with 32 samples.

Results

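Wee1, Cdkn1a, Ccnd1, Myc and Pttg1 are cell cycle genes for which control by the circadian clock has been reported, and their transcripts were read here in mouse photoreceptors, which do not divide. The 5 genes were chosen for that reported link, with earlier results of these data known, out of 54232 genes in the deposited count table. Of these 5, 4 passed the filter on low counts that left 17871 genes for testing, and Myc did not. RNA came from photoreceptors cut by laser microdissection from snap-frozen eyes of 6-week-old males, all labelled with the strain C57BL/6/J x 129 SvEvBrd. The KO animals carried the Per1-/-Per2Brdm1 genotype, in which the clock repressors Per1 and Per2 are mutated, and were sampled at circadian times CT19, CT22, CT1 and CT10, with 4 libraries at each. The WT animals were sampled at the same 4 times, again with 4 libraries at each, which gave 32 libraries in 8 groups. The series is about the daily rhythm with which the pigment epithelium engulfs photoreceptor outer segments, and how Per1 and Per2 act on it. The WT library called replicate 5 at CT1 carries a pair of animal numbers in its title and was used as 1 library.

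The cell cycle advances when cyclins activate their kinases, and the 5 genes act on that engine or on other steps of growth and division. WEE1 is a kinase that holds back entry into mitosis by phosphorylating CDK1. CDKN1A, also called p21, inhibits cyclin-dependent kinases and is the best known target of the tumour suppressor p53. Cyclin D1, the product of Ccnd1, drives the passage out of G1, MYC is a transcription factor that drives growth, and PTTG1 is the securin that holds separase inactive until chromosomes part. In mouse liver, Wee1 is known as a direct target of the clock activators CLOCK and BMAL1 through E-boxes, and Cdkn1a as a target of the repressor REV-ERB alpha. Higher Myc has been reported in tissues of mice that carry a Per2 mutation. None of this background was measured here.

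Library totals ran from 23833604 to 34582742 counts. Levels are given in CPM, counts relative to the library total and scaled between libraries by the TMM method. Per2 stood at 168 to 267 CPM in the 16 KO libraries, against 15.2 to 44.3 CPM in the 16 WT libraries, and Per1 at 169.9 to 323 CPM in KO, against 94.4 to 146 CPM in WT. Counts over a whole gene check nothing about the mutated stretch, but the KO and WT ranges did not overlap for either gene. Rod markers, 11 genes, summed to 87309 to 127968 CPM in KO and 97919 to 157415 CPM in WT, and all 11 were above 0 in every library. RNA of other retinal cells was present in all libraries and was not even over the groups, which is given beside the results it moved with. In such bulk samples, fewer cells of a type and less RNA per cell cannot be told apart.

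**Figure D1:**
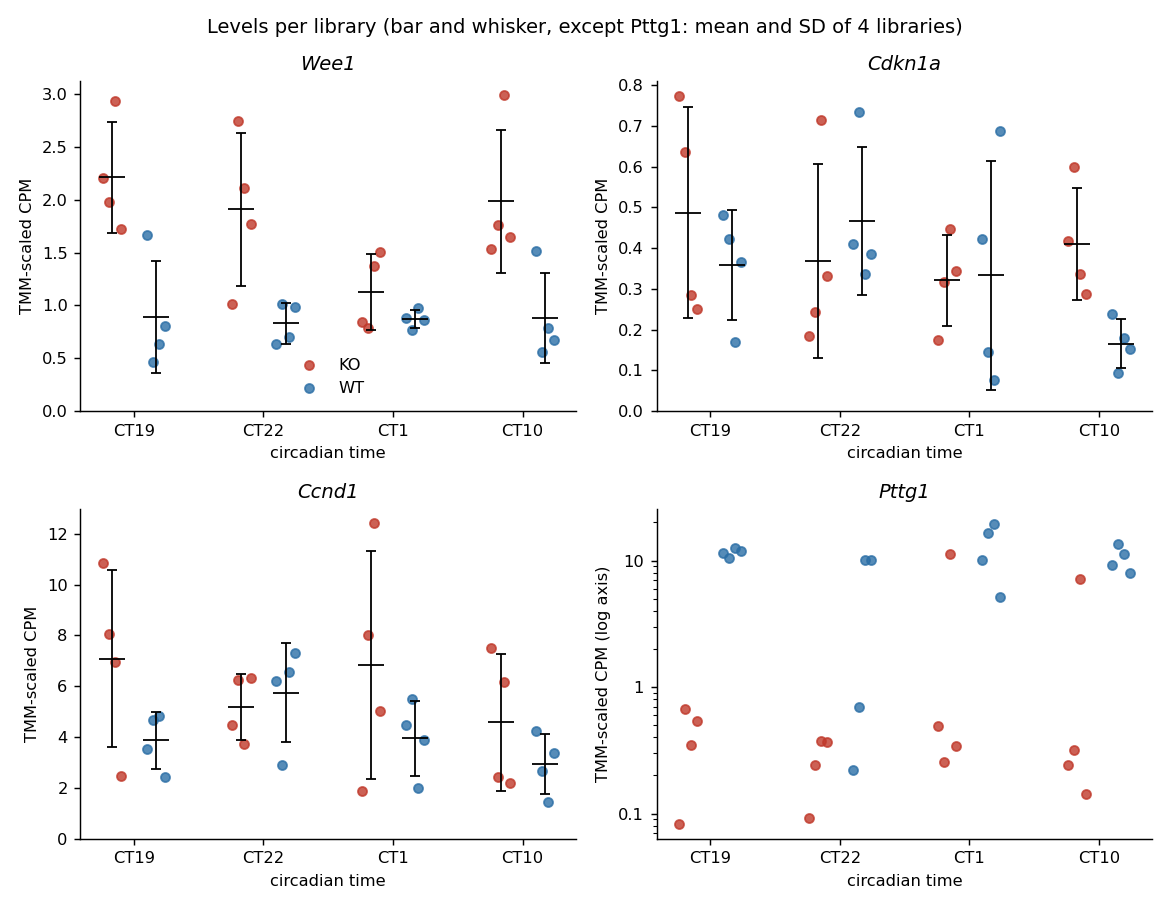
TMM-scaled CPM of Wee1, Cdkn1a, Ccnd1 and Pttg1 (vertical axes; logarithmic for Pttg1) in each library at CT19, CT22, CT1 and CT10, with KO in red to the left of WT in blue. Points are libraries, and bars with whiskers are the mean and SD of 4 libraries, not drawn for Pttg1. Wee1 stands higher in all 4 KO libraries than in all 4 WT libraries at CT19 and CT10, and Pttg1 stands either at 0.699 CPM and below or at 5.11 CPM and above.

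The 5 transcripts stood at very different levels. Per kilobase of annotated exon, Pttg1 had 2.87 CPM over the mean of the 32 libraries, Ccnd1 1.07, Wee1 0.392, Cdkn1a 0.102 and Myc 0.0144. Among the tested genes these levels were at percentile 49.1 for Pttg1, 34.3 for Ccnd1, 20.9 for Wee1 and 6.27 for Cdkn1a. On the same scale Wee1 had a mean of 0.529 in KO and 0.254 in WT. Over the mean of the 4 times, 2 of the 4 tested genes passed the test, at an edgeR adjusted p under 0.05 over all 17871 genes. These were Wee1, higher in KO, and Pttg1, lower in KO. In the same comparison 16.3% of all tested genes were called, 9.88% higher and 6.4% lower. At CT19 the same 2 genes passed, 1 higher and 1 lower, where 5.19% of all genes were called, 2.89% higher and 2.31% lower. At CT10 Wee1 alone passed, where 10.2% of all genes were called, 7.2% higher and 3.02% lower. Between the 16 KO and the 16 WT libraries no member was free of overlap, which 0.476% of all genes were. Groups of 4 did not overlap for Wee1 and Pttg1 at CT19 (10.1% of all genes), for no member at CT22 (6.71%) and CT1 (6.75%), and for Wee1, Cdkn1a and Pttg1 at CT10 (19.6%).

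Wee1 (ENSMUSG00000031016, GRCm38 chromosome 7, 110122046 to 110143286, plus strand) was higher in KO. It lies within the antisense gene 1600010M07Rik, with 0 shared exon bases. At CT19 it stood at 1.72, 1.98, 2.21 and 2.94 CPM in KO, against 0.464, 0.636, 0.803 and 1.66 CPM in WT. At CT22 the values were 1.01, 1.77, 2.11 and 2.75 CPM in KO, against 0.631, 0.703, 0.983 and 1.01 CPM in WT. The KO libraries all lay above the WT libraries at CT19, and at CT22 all but replicate 1 of KO did. At CT1 the levels were 0.791, 0.842, 1.38 and 1.502 CPM in KO, against 0.763, 0.860, 0.880 and 0.978 CPM in WT, and the groups overlapped. At CT10 they were 1.53, 1.65, 1.77 and 2.99 CPM in KO, against 0.557, 0.676, 0.785 and 1.51 CPM in WT, with no overlap.

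Across all times Wee1 averaged 1.81 ± 0.676 CPM in KO and 0.869 ± 0.322 CPM in WT (SD, n = 16 each). The log2 fold change (KO minus WT) was 1.01 (SE 0.18, edgeR adjusted p = 1.41e-04), or 2.01-fold. At CT19 it was 1.28 (SE 0.35, edgeR adjusted p = 0.0288), and CT22 had 1.20 (SE 0.35, adjusted p = 0.0893). CT1 had the smallest, 0.37 (SE 0.36, edgeR adjusted p = 0.691), with a 95% interval of -0.37 to 1.12, and CT10 had 1.17 (SE 0.35, adjusted p = 0.0281). The smaller difference at CT1 was not shown to differ from the others, as the genotype by time interaction had an edgeR adjusted p of 0.563. In order of their means the groups ran from KO at CT19 (2.21 ± 0.523 CPM) through KO at CT10, CT22 and CT1 to the 4 WT groups, which lay between 0.892 and 0.832 CPM. Each group overlapped in range with its neighbour in that order. Single libraries decided the calls at single times. At CT19 the adjusted p moved to 0.0574 when KO replicate 2 was left out and to 0.0921 when KO replicate 4 was. Leaving out WT replicate 2, 3 or 4 at CT19 gave 0.0909, 0.101 and 0.0718. At CT10 leaving out KO replicate 4 gave 0.158, and leaving out WT replicate 2, 4 or 5 gave 0.118, 0.0762 and 0.0867. At CT22 Wee1 passed without KO replicate 1 (0.0307) or WT CT19 replicate 1 (0.0469), and with DESeq2 (0.0329). The call over the mean of the times held with each of the 32 libraries left out in turn, at log2 fold changes of 0.94 to 1.13.

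**Figure D2:**
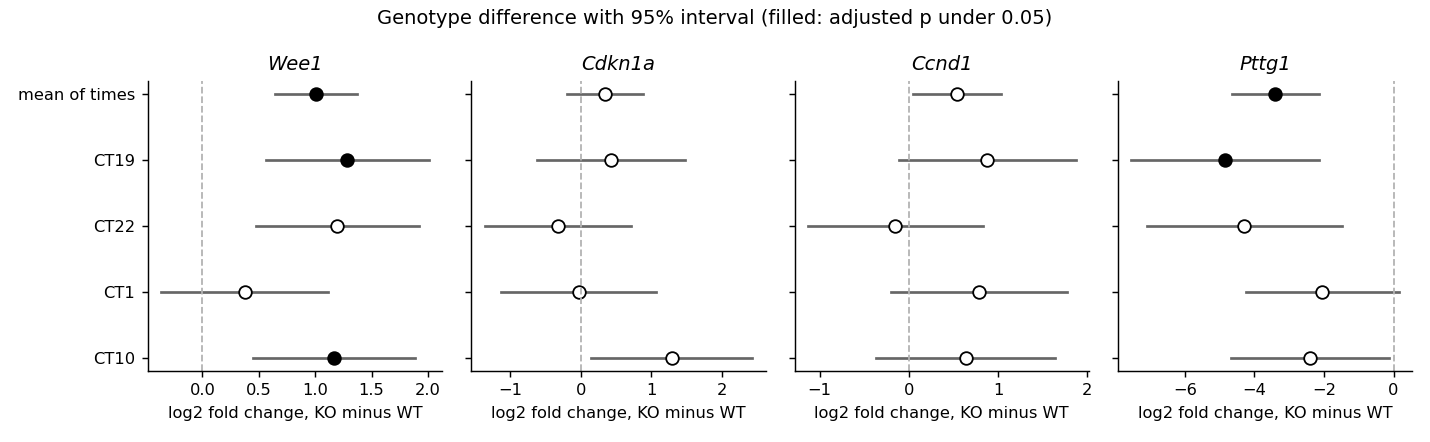
Log2 fold change, KO minus WT (horizontal axes), of Wee1, Cdkn1a, Ccnd1 and Pttg1, first for the mean of the 4 times and then for the single times, with 95% intervals as lines. Filled points passed the edgeR test over all genes. Wee1 is filled at the mean, CT19 and CT10, Pttg1 at the mean and CT19, and the points of Cdkn1a and Ccnd1 are open.

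Markers of several other cell types moved with Wee1, among them those of Muller glia, the supporting cells that span the retina. All 12 listed Muller glia genes were above 0 in every library, and they summed to 731.5 to 1528 CPM in KO, against 449 to 1186 CPM in WT. In KO against WT 6 of the 12 were called higher for the mean of the times, where 9.88% of all tested genes were. At CT10 this number was 7, where 7.2% of all tested genes were called higher. Their mean log2 CPM at CT10 was 5.21 ± 0.242 in KO and 4.32 ± 0.404 in WT (SD, n = 4 each). Across the 32 libraries, which differ in genotype, time and depth, Wee1 followed this level with Pearson's r = 0.67 and Spearman's rho = 0.69, and r was 0.62 without the 2 libraries farthest from the median marker level. Within the 16 KO libraries r was 0.71, and within the 16 WT libraries 0.43. The KO library with the most Wee1 at CT10, replicate 4, also had the highest Muller glia level of its group, 5.56, and WT replicate 1 at CT10 and at CT19 stood highest in its own group on both measures. All 11 bipolar cell markers were above 0 in every library too and summed to 451 to 874 CPM in KO, against 364 to 736 CPM in WT. Of these 11, 9 were called higher in KO for the mean of the times and 10 at CT10, beside the same shares of all genes. Wee1 also followed the level of microglia markers (r = 0.60 over the 32 libraries, 0.54 within KO and 0.36 within WT) and that of endothelium markers (r = 0.57, with 0.37 within KO and 0.35 within WT). It ran against the level of rod markers (r = -0.58, with -0.52 within KO and -0.32 within WT). The microglia markers were near the floor: they summed to 0.785 to 7.14 CPM, and 5 of the 8 listed genes were at 0 in some library. Of the 7 endothelium genes 1 was at 0 in some library.

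With the Muller glia level as a covariate, Wee1 was still called over the mean of the times (log2 fold change 0.62, SE 0.17, edgeR adjusted p = 0.0277) but had an adjusted p of 0.0612 at CT19 (log2 fold change 0.99, SE 0.30) and 0.654 at CT10 (0.40, SE 0.34). With the level of bipolar, Muller glia and amacrine markers together, the log2 fold change over the mean of the times was 0.60 (SE 0.19) and its adjusted p 0.0642, which is not past the threshold. The same covariate gave 1.11 (SE 0.30, edgeR adjusted p = 0.0485) at CT22 and 0.18 (SE 0.41, adjusted p = 0.914) at CT10. The plot of Wee1 beside the Muller glia level shows the libraries behind these values. At marker levels from 4.79 to 5.40, which both genotypes reach, KO libraries stood at 0.791 to 1.77 CPM of Wee1 and WT libraries at 0.464 to 1.66 CPM, so that the ranges overlapped. The highest WT values there were 1.66 CPM in replicate 1 at CT19 and 1.51 CPM in replicate 1 at CT10, and the next was 1.01 CPM. The KO values there were 1.38 CPM or more, save 0.791 and 0.842 CPM at CT1 and 1.01 CPM at CT22. Just past this stretch, at 5.41, KO replicate 3 at CT22 had 2.11 CPM.

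**Figure D3:**
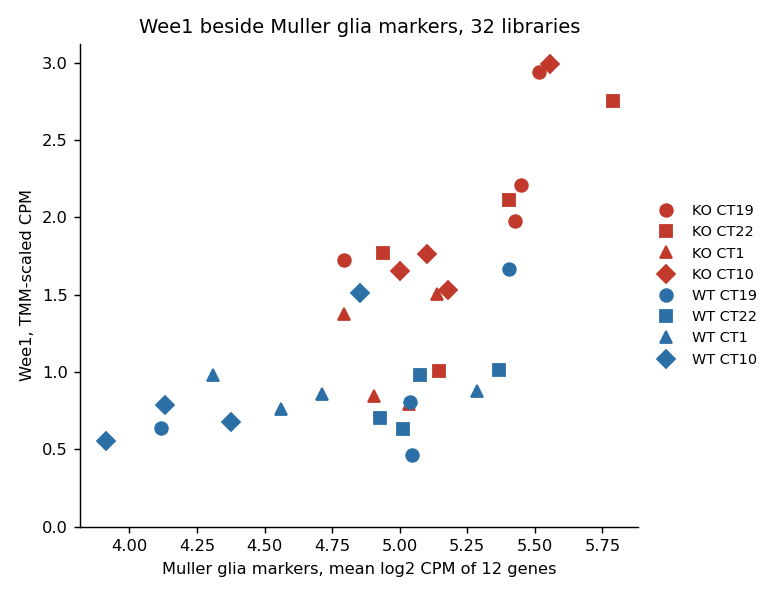
Wee1 in TMM-scaled CPM (vertical axis) against the mean log2 CPM of 12 Muller glia markers (horizontal axis) in the 32 libraries, KO in red and WT in blue, with the symbol giving the time. The KO points reach 2.99 CPM at a marker level of 5.56, and the WT points lie between 0.464 and 1.66 CPM.

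The transcripts whose log2 CPM followed Wee1 most closely over the 32 libraries, among 10680 candidates, were Gyg (r = 0.83), Sfxn5 (r = 0.80) and Tbc1d16 (r = 0.76). Gyg encodes glycogenin, the primer of glycogen synthesis, Sfxn5 a mitochondrial carrier of the sideroflexin family and Tbc1d16 a regulator of Rab GTPases. Gyg averaged 7.87 ± 2.23, 6.64 ± 0.889, 4.30 ± 0.722 and 6.57 ± 0.499 CPM in KO at CT19, CT22, CT1 and CT10 (SD, n = 4 each). In WT it averaged 4.03 ± 1.41, 4.39 ± 1.06, 4.07 ± 0.735 and 3.77 ± 0.981 CPM at the same times. As for Wee1, the lowest KO mean was that of CT1, and the WT means lay close together. Gyg was picked for its r with Wee1 over these same libraries, so a shared pattern over the groups is part of that choice. Within genotypes the correlation of Gyg with Wee1 was 0.75 in KO and 0.62 in WT.

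Cdkn1a (ENSMUSG00000023067, chromosome 17, 29090976 to 29100727, plus strand) was a rare transcript, with 2 to 28 counts per library, and no genotype difference was called. It shares 273 exon bases with AC167363.2 on the opposite strand. p53 is known to switch this gene on from elements upstream of it, and the bases before its first annotated exon are shown because they hold letters of that kind. They lie at chr17:29090729-29090975 on the plus strand of GRCm38.p6 (RefSeq), and the capitals mark a pair of CATG cores with 6 bases between them, the core letters of a p53 element:
Cdkn1a: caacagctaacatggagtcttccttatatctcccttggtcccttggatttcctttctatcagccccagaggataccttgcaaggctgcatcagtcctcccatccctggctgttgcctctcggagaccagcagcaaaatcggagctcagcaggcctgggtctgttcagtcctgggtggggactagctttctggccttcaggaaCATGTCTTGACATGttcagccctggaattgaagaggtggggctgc
The match CATGTCTTGACATG ends 35 bases before the RefSeq start, which lies 3 bases inside the first annotated exon. Letters searched on both strands of the 250 bases before each RefSeq start, overlaps included, were CATGNNNNNNCATG, found in 0.490% of 32851 RefSeq windows, the E-box CACGTG (6.02%), the related CACGTT (3.85%), AGGTCA, the core bound by REV-ERB and ROR (14.02%), and the D-box TTATGTAA (0.819%). No other match was found in this window, in the window at the second Cdkn1a start or in the window of Pttg1, of which 195 bases lie in annotated exons, and no match says only that these letters are not in these 250 bases.

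At CT19 Cdkn1a stood at 0.251, 0.284, 0.637 and 0.774 CPM in KO, against 0.169, 0.365, 0.422 and 0.480 CPM in WT. At CT22 the KO libraries had 0.184, 0.244, 0.332 and 0.714 CPM, against 0.336, 0.386, 0.410 and 0.734 CPM in WT. The groups overlapped at both times, and again at CT1, where the means were 0.321 ± 0.112 CPM in KO and 0.333 ± 0.280 CPM in WT (SD, n = 4 each). At CT10 the levels were 0.287, 0.336, 0.418 and 0.599 CPM in KO, against 0.0928, 0.154, 0.178 and 0.237 CPM in WT, with no overlap. In counts these CT10 libraries held 8 to 19 in KO and 3 to 8 in WT. The log2 fold change at CT10 was 1.29 (SE 0.55, unadjusted p = 0.0244), and with an edgeR adjusted p of 0.135 it did not pass. For the mean of the times it was 0.34 (SE 0.26, edgeR adjusted p = 0.403), with a 95% interval of -0.20 to 0.88. DESeq2 did not call the gene in either comparison.

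Some marker levels also differed at CT10, where the Cdkn1a values of KO lay above those of WT. Lens markers, 10 genes that were above 0 in every library, went the opposite way, with a mean log2 CPM of 4.72 in KO and 7.28 in WT. They summed to 324 to 2311 CPM in KO at CT10, against 1894 to 7409 CPM in WT at CT10. Their mean log2 CPM, which served as the lens covariate, ran there from 3.08 to 6.40 in KO and from 6.54 to 8.47 in WT, without overlap. Cdkn1a had r = 0.05 with the lens level over the 32 libraries, with 0.62 within KO and -0.12 within WT. With the lens level as a covariate the CT10 log2 fold change was 2.13 (SE 0.52, edgeR adjusted p = 0.00795) and passed. With the Muller glia level as a covariate it was 0.40 (SE 0.62, edgeR adjusted p = 0.819), and with the inner retina level 0.56 (SE 0.75, adjusted p = 0.828), so that these covariates moved it the other way. The lens, Muller glia and inner retina levels were each without overlap between KO and WT at CT10. The CT10 values with these covariates therefore cannot separate genotype from marker level. Muller glia markers were lower in WT at CT10, as given above, and Cdkn1a followed them with r = 0.65 over 32 libraries, at 0.24 within KO and 0.83 within WT. The Muller glia covariate also turned the log2 fold change over the mean of the times to -0.07 (SE 0.29, edgeR adjusted p = 0.927). The closest transcripts to Cdkn1a over the 32 libraries were Gdf11 (r = 0.73), a ligand of the TGF-beta family, Ppp1r1a (r = 0.72), an inhibitor of protein phosphatase 1, and Gpld1 (r = 0.71), a phospholipase. Within genotypes r was 0.62 in KO and 0.77 in WT for Gdf11, 0.38 in KO and 0.84 in WT for Ppp1r1a, and 0.37 in KO and 0.86 in WT for Gpld1. Gpld1 shares 2466 exon bases with Mrs2 on the opposite strand, and their reads could not be told apart.

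Ccnd1 (ENSMUSG00000070348, chromosome 7, 144929931 to 144939925, minus strand) spread widely within groups, and no genotype difference was called. At CT19 it stood at 2.48, 6.95, 8.04 and 10.9 CPM in KO, against 2.45, 3.52, 4.68 and 4.83 CPM in WT. At CT22 it stood at 3.73, 4.47, 6.23 and 6.31 CPM in KO, against 2.90, 6.21, 6.57 and 7.30 CPM in WT. At CT19 all but replicate 5 of KO lay above the WT libraries, and at CT22 the groups overlapped. At CT1 the KO libraries had 1.89, 5.04, 8.01 and 12.4 CPM, against 1.99, 3.87, 4.50 and 5.49 CPM in WT. At CT10 they had 2.19, 2.43, 6.17 and 7.52 CPM, against 1.46, 2.66, 3.38 and 4.24 CPM in WT, and the groups overlapped at both times.

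Across all times Ccnd1 averaged 5.92 ± 3.07 CPM in KO and 4.13 ± 1.68 CPM in WT (SD, n = 16 each). The log2 fold change was 0.54 (SE 0.24, unadjusted p = 0.0332), with a 95% interval of 0.04 to 1.03, and the edgeR adjusted p of 0.131 did not pass. CT19 had 0.88 (SE 0.48), CT22 -0.15 (SE 0.47), CT1 0.79 (SE 0.48) and CT10 0.64 (SE 0.49), with edgeR adjusted p of 0.297, 0.951, 0.494 and 0.458. Ccnd1 was called under none of the alternative settings or left-out libraries. It shares 1100 exon bases with LTO1 on the opposite strand, which averaged 32.6 ± 3.04 CPM in KO and 34.4 ± 2.55 CPM in WT, so that part of either count may belong to the other. LTO1 was not called at any time. Among the closest transcripts to Ccnd1 were Cgnl1 (r = 0.67), a junction protein, and Chrna4 (r = 0.61), a nicotinic receptor subunit, and within genotypes r with Cgnl1 was 0.76 in KO and 0.39 in WT.

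Myc (ENSMUSG00000022346, chromosome 15, 61985391 to 61990374, plus strand) was close to undetected. The 16 KO libraries held 19 counts in all, with 0 to 4 per library and 6 libraries at 0, and the 16 WT libraries held 17 counts, with 0 to 3 per library and 5 at 0. A floor of 3 counts corresponds to 0.0829 to 0.129 CPM per library, and 1 KO library, replicate 4 at CT10, exceeded 3 counts. A genotype difference was not detectable at this depth, and no fold change is given.

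Pttg1 (ENSMUSG00000020415, chromosome 11, 43420250 to 43426251, minus strand) was lower in KO and fell into a pair of levels with nothing between them. At CT19 it stood at 0.0829, 0.347, 0.538 and 0.670 CPM in KO, against 10.5, 11.4, 11.98 and 12.5 CPM in WT. At CT22 it stood at 0.0918, 0.244, 0.369 and 0.373 CPM in KO, against 0.221, 0.699, 10.1 and 10.2 CPM in WT. All KO libraries were low at both times, while WT was high at CT19 and split at CT22, where replicates 1 and 2 were low. At CT1 the values were 0.253, 0.344, 0.491 and 11.3 CPM in KO, against 5.11, 10.1, 16.5 and 19.6 CPM in WT. At CT10 they were 0.144, 0.244, 0.315 and 7.12 CPM in KO, against 7.93, 9.28, 11.3 and 13.6 CPM in WT. In KO, replicate 5 at CT1 and replicate 4 at CT10 were high, and in WT all libraries were high at both times. Of the 16 libraries between 5.11 and 19.6 CPM, 2 were KO and 14 WT, and of the 16 libraries between 0.0829 and 0.699 CPM, 14 were KO and 2 WT. In Per1 and Per2 these 4 exceptions stood with their own labels, since the ranges of KO and WT given above do not overlap for either gene.

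The log2 fold change of Pttg1 over the mean of the times was -3.40 (SE 0.61, edgeR adjusted p = 3.47e-04). At CT19 it was -4.85 (SE 1.30, edgeR adjusted p = 0.0310), and at CT22 -4.29 (SE 1.36, adjusted p = 0.134). At CT1 it was -2.04 (SE 1.07, edgeR adjusted p = 0.410) and at CT10 -2.40 (SE 1.10, adjusted p = 0.176), so that CT19 alone passed among the single times. Without KO replicate 5 at CT1 that time had -5.14 (edgeR adjusted p = 0.0339), and without KO replicate 4 at CT10 that time had -5.46 (adjusted p = 0.0177), past the threshold in each case. At CT19 leaving out KO replicate 2, 3 or 4 gave an adjusted p of 0.0914, 0.0684 and 0.0791, and leaving out WT replicate 3 gave 0.0618. With the Muller glia level as a covariate the CT19 log2 fold change was -4.71 (SE 1.35, edgeR adjusted p = 0.0550), and with the inner retina level -4.57 (SE 1.39, adjusted p = 0.0813), close in size to the -4.85 without them. The call for the mean of the times held with each of the 32 libraries left out in turn. Its log2 fold change was -4.17 without KO replicate 5 at CT1, -4.16 without KO replicate 4 at CT10, and between -3.50 and -3.26 without any other.

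Ublcp1, a phosphatase that acts on the nuclear proteasome, ranked first of 10679 transcripts in likeness to Pttg1 (r = 0.87 over the 32 libraries). It lies on the same chromosome (GRCm38 chromosome 11, 44454571 to 44470498), and the starts of the 2 genes are 1.04 Mb apart. The widest gap in log2 Pttg1 split the libraries into 2 sets of 16. Ublcp1 stood at 10.4 to 14.5 CPM in the set with low Pttg1 and at 15.9 to 25.8 CPM in the set with high Pttg1. In the exceptions Ublcp1 stood at 16.98 CPM in KO replicate 5 at CT1 and at 17.1 CPM in KO replicate 4 at CT10, against 10.4 and 12.2 CPM in WT replicates 1 and 2 at CT22. Ublcp1 was picked for its r with Pttg1 over these same libraries, so its match in the exceptions is part of that choice. The pooled r joins these sets, and within them it was 0.36 in the 16 high and 0.24 in the 16 low libraries. Both sets were cut on Pttg1 itself, and the low one rests on 3 to 20 Pttg1 counts per library. Ublcp1 itself had a log2 fold change over the mean of the times of -0.39 (SE 0.07, edgeR adjusted p = 4.53e-04). The next in likeness were Hcls1 (r = 0.78), a cortactin-related protein on chromosome 16, and Fscn2 (r = 0.75), an actin-bundling protein 76.9 Mb from Pttg1 on chromosome 11. Within the 16 high libraries r with Pttg1 was 0.35 for Hcls1 and 0.09 for Fscn2, and within the 16 low libraries 0.30 and 0.07. Within genotypes r with Pttg1 was 0.79 in KO and 0.84 in WT for Ublcp1. For Hcls1 it was 0.25 in KO and 0.24 in WT, and for Fscn2 0.08 and 0.21. Hcls1 stood at 12.2 to 23.9 CPM in KO and 53.7 to 106 CPM in WT, and Fscn2 at 38.6 to 71.1 and 116 to 180 CPM. Neither followed the exceptions. Per1 lies 25.7 Mb from Pttg1 on chromosome 11. All animals carry the label of a mixed strain, and the part of inherited strain differences at this stretch of chromosome 11 in the Pttg1 and Ublcp1 differences was not tested.

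**Figure D4:**
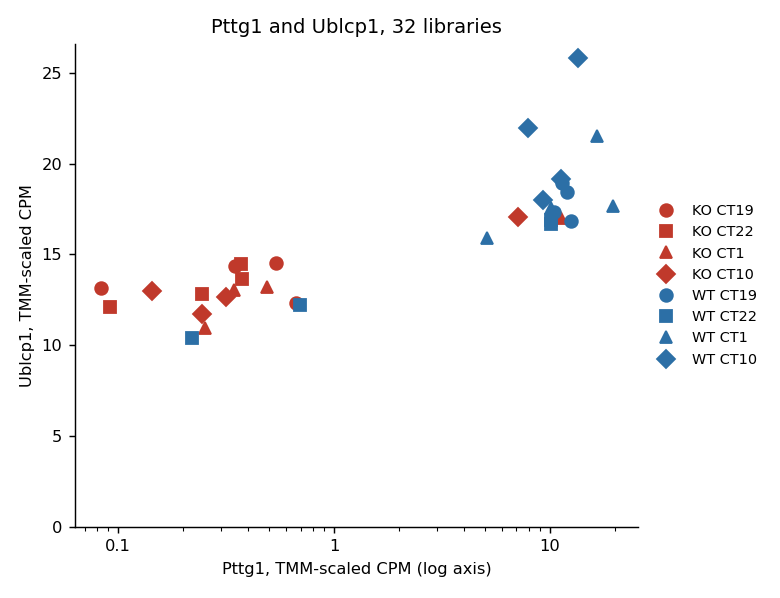
Ublcp1 (vertical axis) against Pttg1 (horizontal logarithmic axis), both in TMM-scaled CPM, in the 32 libraries, KO in red and WT in blue with the symbol giving the time. Libraries at 0.0829 to 0.699 CPM of Pttg1 have 10.4 to 14.5 CPM of Ublcp1, and libraries at 5.11 to 19.6 CPM have 15.9 to 25.8 CPM, with KO and WT points in both sets.

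None of the 4 tested genes passed a test for differences among the 4 times. Within KO, where 0.0056% of all genes were called, edgeR called 0 of the 4, with 2 at an unadjusted p under 0.05 and 0 by DESeq2. These were Wee1 (unadjusted p = 0.0459, edgeR adjusted p = 0.471), whose KO means spanned 0.97 on the log2 scale, and Pttg1 (unadjusted p = 0.0334, edgeR adjusted p = 0.425), whose KO means rest on the exceptions named above. Within WT, where 14.6% of all genes were called, edgeR called 0 of the 4, with 0 at an unadjusted p under 0.05 and 0 by DESeq2. The WT means of Wee1 spanned 0.13, those of Ccnd1 0.96 and those of Cdkn1a 1.49 on the log2 scale (edgeR adjusted p = 0.993, 0.471 and 0.223). The genotype by time interaction, called for 1.62% of all genes, gave 0 of 4 by edgeR, 0 at an unadjusted p under 0.05 and 0 by DESeq2, which left Cdkn1a without an adjusted p there. At CT22, where 1.53% of all genes were called between KO and WT, 0.901% higher and 0.627% lower in KO, edgeR called 0 of the 4 genes, with 2 at an unadjusted p under 0.05 and 2 by DESeq2. At CT1, where 1.58% were called, 1.06% higher and 0.515% lower in KO, edgeR called 0, with 0 at an unadjusted p under 0.05 and 0 by DESeq2. The 4 times are points of 1 cycle, and no rhythm was fitted.

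Some genes that mark dividing cells were at or near 0, and others were not. Mki67, carried by cycling nuclei, had 0 to 10 counts per library and was at 0 in 20 of 32 libraries. Top2a, which untangles DNA in mitosis, had 0 to 4 counts, Ccnb1 (cyclin B1) and Cdk1, its kinase and the target of WEE1, had 0 to 7 each, and Bub1, a checkpoint kinase, had 0 to 3. Pcna, the sliding clamp of DNA replication and repair, averaged 30.4 CPM in KO and 35.2 CPM in WT, and the helicase subunit Mcm4 averaged 13.4 CPM in KO and 14.5 CPM in WT. Further genes of the cycle were read beside the 5 in 9 lists, with 92 tested in all. Some of the 92 were as scarce as Cdc20, a mitotic activator, at 0.181 CPM in KO and 0.263 CPM in WT, and their tests rest on few counts. Of the 92 genes 12 were called over the mean of the times, 2 higher and 10 lower in KO. Of all tested genes 16.3% were called, 9.88% higher and 6.4% lower. With the inner retina level as a covariate, 8 of these 12 were not called, and the 4 that were are Rbl2, Plk1, Wapl and Mcm6. Most of the calls over all tested genes were lost with this covariate as well, as given further on.

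Among 17 drivers and targets of the G1 to S passage, 0 rose and 2 fell in KO, with a list median of -0.03 beside -0.003 for all genes on the log2 scale. Ccnd3, another D cyclin, fell by 0.22 (41.4 CPM in KO, 48.5 CPM in WT, edgeR adjusted p = 0.0122), and Rbl2, a pocket protein that represses E2F targets, fell by 0.19 (adjusted p = 0.0269, and 0.0508 without WT replicate 6 at CT22). Of 4 tested CDK inhibitors 1 fell, Cdkn1c, by 0.21 (edgeR adjusted p = 0.0383), and that call was lost with 15 of the 32 libraries left out in turn. Of 7 tested genes of G2 and mitosis 1 fell: Plk1, a mitotic kinase, had 2.24 CPM in KO and 3.68 CPM in WT (log2 fold change -0.69, SE 0.12, edgeR adjusted p = 1.18e-04). Plk1 at CT19 stood at 1.69 to 3.05 CPM in KO and at 3.33 to 5.61 CPM in WT, with no overlap. Of 12 genes around securin, separase and cohesin 1 fell, the cohesin release factor Wapl, by 0.24 (adjusted p = 6.84e-04). Plk1, Wapl and Mcm6, described next, were called over the mean of the times under every alternative setting and left-out library.

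Of 9 tested proliferation markers 1 rose and 1 fell. Both are subunits of the same replicative helicase. Mcm6 had 1.33 CPM in KO and 2.52 CPM in WT (log2 fold change -0.87, SE 0.16, edgeR adjusted p = 2.12e-04). Mcm5 had 2.73 CPM in KO and 2.15 CPM in WT (0.41, SE 0.10, adjusted p = 0.00642). Mcm6 at CT22 stood at 0.801 to 1.92 CPM in KO and at 2.87 to 3.65 CPM in WT. Of 9 tested genes of the MYC network 1 fell, the dimer partner Max, by 0.13 (edgeR adjusted p = 0.0222). Of 12 MYC targets, edgeR called 0, with 2 at an unadjusted p under 0.05 and 0 by DESeq2. Of 15 tested p53 pathway genes 2 fell, Gadd45a by 0.19 and Tigar by 0.13, and none rose.

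Among 7 further genes that link the clock to the cycle, Timeless, a replication fork protein, rose and Chek2, a checkpoint kinase, fell. Timeless averaged 3.22 ± 0.467 CPM in KO and 2.29 ± 0.643 CPM in WT (SD, n = 16 each; log2 fold change 0.52, SE 0.11, edgeR adjusted p = 0.00151). At CT19 it stood at 2.65, 3.09, 3.85 and 3.89 CPM in KO, against 0.840, 1.77, 2.08 and 2.11 CPM in WT, with no overlap. Chek2 averaged 1.23 ± 0.371 CPM in KO and 1.76 ± 0.565 CPM in WT (log2 fold change -0.48, SE 0.13, edgeR adjusted p = 0.0118). Of 20 core clock genes 16 were called over the mean of the times. In KO 14 were higher and 2 lower, beside 9.88% and 6.4% of all tested genes. Several of the genes named here share exon bases with a gene on the opposite strand, among them Ccnd3, Rbl2, Cdkn1c, Plk1, Gadd45a, Tigar and Timeless. Tbc1d16 above and Mxd4 and Mlx below do so too, which makes the counts of all these genes less certain. The plot of the lists gives the 92 values.

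**Figure D5:**
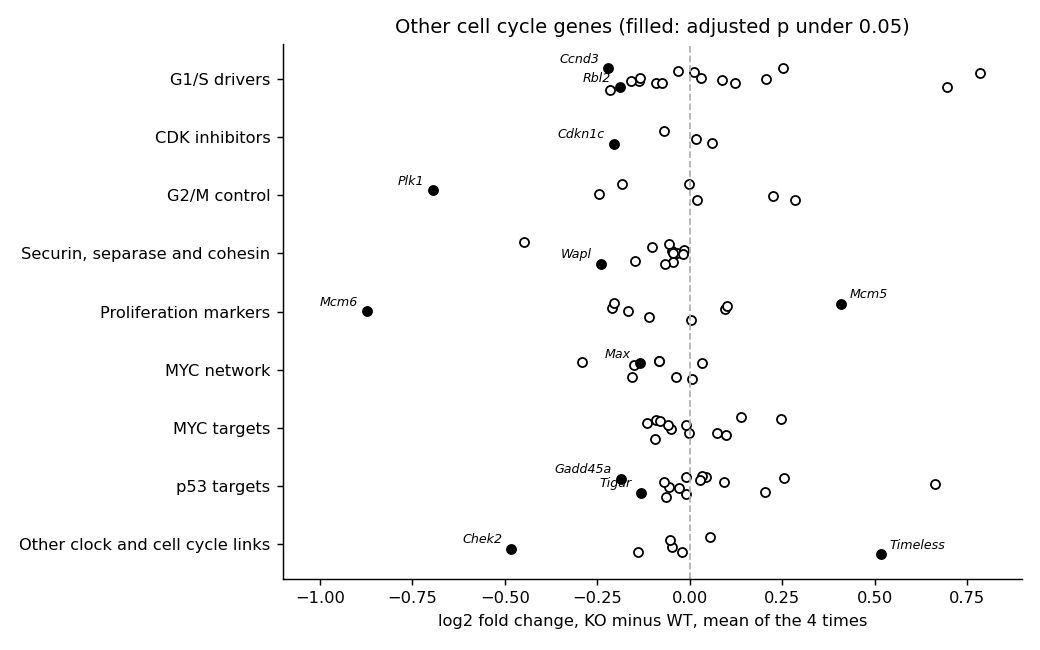
Log2 fold change, KO minus WT, over the mean of the 4 times (horizontal axis) of the tested genes of 9 lists (rows), with vertical scatter for legibility. Filled, named points passed the edgeR test over all genes, 12 of 92, and most points lie close to 0.

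Times separated some of these other genes in WT. Within KO edgeR called 0 of the 92, with 14 at an unadjusted p under 0.05 and 0 by DESeq2. Within WT 23 of the 92 were called, against 14.6% of all genes. The clearest was E2f3, a transcription factor of the G1 to S passage. In KO it stood at 27.5 to 34.8, 26.9 to 32.4, 28.7 to 36.8 and 28.1 to 35.7 CPM at CT19, CT22, CT1 and CT10. In WT it stood at 37.4 to 54.5, 39.3 to 49.9, 31.01 to 36.7 and 20.5 to 23.7 CPM at the same times. It was thus lower in KO than in WT at CT19 and CT22, with log2 fold changes of -0.54 and -0.56 (edgeR adjusted p = 0.00252 and 0.00225), and higher by 0.62 at CT10 (adjusted p = 2.98e-04), with no overlap at any of these times. Its genotype by time interaction had an edgeR adjusted p of 1.09e-04 and was called under every alternative setting and left-out library. The CT10 difference had an adjusted p of 0.259 with the inner retina covariate, which did not overlap between KO and WT at that time. The CT19 difference had one of 0.0612 on its own 8 libraries.

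The interaction was called for 4 of the 92 genes, against 1.62% of all genes: E2f3, Mcm3 (edgeR adjusted p = 0.0154), Mxd4 (0.0311) and Mlx (0.0433). The call of Mcm3 was lost without KO replicate 4 at CT10 (0.0527), that of Mxd4 with 7 and that of Mlx with 18 of the libraries left out in turn. Mcm3, a subunit of the replicative helicase, averaged 2.88, 2.11, 2.38 and 2.18 CPM in KO and 1.67, 1.44, 2.30 and 4.41 CPM in WT at CT19, CT22, CT1 and CT10. Mxd4, a MAX partner that opposes MYC, stood at 51.7 to 67.3 CPM in KO at CT10, against 68.8 to 78.5 CPM in WT, where the 3 other WT times lay between 46.0 and 59.5 CPM. Mad2l1, a spindle checkpoint protein, stood at 21.8 to 24.8 CPM in KO at CT10, against 28.6 to 32.3 CPM in WT (log2 fold change -0.38, SE 0.10, edgeR adjusted p = 0.00970), a call lost with the inner retina covariate (adjusted p = 0.202) and with the lens covariate (0.0860). Neither covariate overlapped between KO and WT at CT10. Over the WT times 8 of 11 bipolar markers, 4 of 12 Muller glia markers and 5 of 10 lens markers were called too, beside 14.6% of all genes. With the inner retina covariate the 23 calls among WT times numbered 8 and the 4 interaction calls 2, and with the lens covariate they numbered 14 and 1.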

How the data were processed

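The values were raw counts of reads per gene in 32 libraries, as deposited by the authors. Trimmomatic 0.32, HISAT2 2.1.0, Cufflinks, HTSeq 0.11 and build GRCm38.p6 are named in the submitters' processing notes. What each did, the annotation, the strand setting and the treatment of multiply matching reads were not given in the sources used here, and reads of genes overlapping on opposite strands cannot be told apart. Per the labels' protocols the RNeasy Micro and KAPA mRNA HyperPrep kits were used. Libraries were grouped by their labels, whose numbers mark separate animals as far as they say, save the WT library at CT1 with a pair of numbers. The p-values set differences between groups against the spread between libraries.

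GENCODE annotation of GRCm38 named 99.9% of the identifiers. With edgeR 4.0.16 in R 4.3.3, filterByExpr (minimum count 10 and total 15) kept 17871 genes, TMM scaled the libraries, and 1 fit with a mean per group (24 residual degrees of freedom) took all 32. Robust quasi-likelihood tests were adjusted by Benjamini-Hochberg across the 17871 genes, and a gene is called under 0.05. Differences among times and the interaction are F tests. An adjusted p without a tool's name is edgeR's. Floors cover counting error only. The procedure was tested on simulated counts. The genes, lists, markers, motifs and naming rule were chosen with earlier results of these data known. The rule named from each list up to 4 called genes with the smallest p over the mean of the times and up to 2 in other comparisons, of which some are left out here, and for each gene the 3 transcripts with the highest r, 1 of which is not reported here. Alternatives were DESeq2 1.42.0, RLE scaling, no filter, single times fitted alone, blocks, marker covariates and each library left out.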

Additional observations from a re-analysis of the deposited data

Results flagged for a closer look

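Of the 32 sets of 4 libraries checked (4 tested genes in 8 groups), 3 held a library far from the other 3, where chance alone flags about 1 set in 20. Wee1 in KO at CT10 stood at 2.99 CPM in replicate 4, against 1.53 to 1.77 CPM in the other 3 libraries, and the Muller glia level of that library, 5.56, was also the highest of its group. Pttg1 in KO at CT1 stood at 11.3 CPM in replicate 5, against 0.253 to 0.491 CPM in the other 3. Pttg1 in KO at CT10 stood at 7.12 CPM in replicate 4, against 0.144 to 0.315 CPM in the other 3. Both libraries with high Pttg1 were also the highest of their groups in Ublcp1, at 16.98 CPM and 17.1 CPM, a gene picked for its likeness to Pttg1 in these same libraries.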

How the results depend on the processing

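Genes called over the mean of the times numbered 2909, and 842 with the inner retina covariate or 1068 with the Muller glia covariate. At CT19 they numbered 928, against 546 with no filter, 467 with inner retina, 547 with Muller glia, 194 on that time's libraries alone and 1505 by DESeq2. At CT22 they were 273, against 120 on that time alone and 445 by DESeq2, and at CT1 282, against 180 and 480 under the same settings. At CT10 they were 1825, against 202 with inner retina and 436 with Muller glia, levels that did not overlap between KO and WT at that time. Among WT times they were 2615, against 1211 with inner retina and 1695 with lens, and for the interaction 289, against 149, 125 and, by DESeq2, 913. Among KO times 1 gene was called, against 5 with no filter, 183 by DESeq2 and 0 with the inner retina covariate (1722 at an unadjusted p under 0.05). With 1 library left out the counts ran from 2456 to 3278 (mean), 423 to 1164 (CT19, lowest without WT CT19 replicate 3), 170 to 295 (CT22, KO CT22 replicate 3), 189 to 354 (CT1), 946 to 2055 (CT10, WT CT10 replicate 2), 1563 to 3144 (WT times, WT CT10 replicate 2), 0 to 29 (KO times, highest without KO CT19 replicate 5) and 142 to 429 (interaction, KO CT10 replicate 4). Same-numbered libraries did not deviate together (median r -0.01 over 77 pairs, and 8 of 32 libraries correlated best with their own number), so the numbers were not taken to pair animals. The replicate block gave 3069 over the mean of the times, 844 at CT19, 215 at CT22, 254 at CT1, 1963 at CT10, 2237 among WT times, 308 for the interaction and 0 among KO times (1948 at an unadjusted p under 0.05). A block of title number sets also gave 0 among KO times (1798).

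Cdkn1a reversed at CT1, where it had -0.03, to 0.0612 with the replicate block, 0.0385 with the title number set block and 0.59 with the lens covariate. It also reversed there without KO CT1 replicate 1 (0.17), WT CT1 replicate 1 (0.13) or WT CT1 replicate 5 (0.54), within a range of -0.36 to 0.54. Over the mean of the times it reversed to -0.0722 with the Muller glia covariate. Its difference among WT times was called with the lens covariate (edgeR adjusted p = 0.0143). Its low counts left it out of the fit on CT10 libraries alone, and DESeq2 gave it no adjusted p at CT19 and CT22. Wee1 at CT19 was not called on that time's libraries alone (0.125), nor Pttg1 at CT19 with no filter (0.0598), whereas Pttg1 was called at CT22 by DESeq2 (0.00711) and at CT10 with the title number set block (0.0370). The cause of these shifts was not tested. Cdkn1a and Myc are limited by counts of 0 to 28 per library, and low Pttg1 rests on 3 to 20 counts.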

Other observations

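Genes near the 5 were counted within 1 Mb of each start, for the mean of the 4 times. Near Wee1 3 of 25 tested neighbours were called, with the AMP deaminase Ampd3 higher in KO by 0.59 (SE 0.15, edgeR adjusted p = 0.00730) on the log2 scale. Near Cdkn1a 4 of 32 were called, among them Ppard, a nuclear receptor of fatty acids, at -0.37 (SE 0.04, adjusted p = 6.39e-08) and the secreted protein Scube3 at -1.45 (SE 0.24, adjusted p = 7.95e-05). Near Ccnd1 1 of 9 was called, the synaptic scaffold Shank2, at 0.37 (SE 0.05, adjusted p = 8.08e-07). Myc had 1 tested neighbour, which was not called. Near Pttg1 2 of 5 were called, Ccnjl at -0.32 (SE 0.09, adjusted p = 0.0106) and 4933415A04Rik at -0.58 (SE 0.13, adjusted p = 0.00181), beside 16.3% of all tested genes.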
